A study of Homo sapiens with 6 samples.

Results

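The genes described here make cholesterol and fatty acids or control and move the sterols that result. The list holds 39 genes in 5 groups by role, namely 8 of the mevalonate pathway, 11 sterol enzymes that act after farnesyl diphosphate, 4 regulators of the sterol-sensing transcription factors, 6 genes of sterol uptake, transport and efflux, and 10 of fatty acid synthesis. Every probe whose listed gene symbol was one of these names was taken, without regard to its signal. The list itself, like the list of other lipid genes below, was chosen with earlier results of these data known. Shares of members set beside those of all rows are therefore descriptions, not tests. This gave 59 probes for 37 genes, and 36 genes passed the detection filter and were tested among 15967 rows. The probe of STARD4, a cytosolic sterol carrier, was not detected on any array, and no probe was listed for ACSL3 and FDFT1.

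The samples were HCT116 cells, a human colorectal carcinoma line, that stably carried one of 3 short hairpin RNAs (shRNAs), which the cell cuts into small interfering RNAs against a chosen transcript. One group carried a non-silencing hairpin (NS shRNA), and the others carried PEA15 shRNA 1 or PEA15 shRNA 2, hairpins against PEA15, a small adaptor protein that binds ERK kinases. No sample lacked a hairpin, all came from a single cell line grown with fetal bovine serum, and the sources used here do not give the vector that drives the hairpins. Each group had 2 Illumina expression arrays, and the labels do not state that these came from separate cultures, so the p-values reflect only how far these samples spread, and that spread may be technical.

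Cells make cholesterol from acetyl-CoA through mevalonate, farnesyl diphosphate, squalene and lanosterol, and make fatty acids from the same acetyl-CoA through malonyl-CoA. Both routes are transcribed under the sterol regulatory element-binding proteins (SREBPs), which are made as membrane precursors in the endoplasmic reticulum. When sterols are low, SCAP escorts the precursors to the Golgi for cleavage, and when sterols are high, INSIG1 holds SCAP and the precursors back. Serum in the medium supplies cholesterol in lipoproteins to cultured cells.

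Between 19441 and 20351 of the 47323 probes were detected on an array. Across rows, r was 0.995 within each group and between 0.989 and 0.994 for arrays of 2 groups. PEA15 itself stood at 8.97 and 9.15 on the NS shRNA arrays, at 8.22 and 8.17 with shRNA 1 and at 7.71 and 7.93 with shRNA 2, on the normalized log2 scale used for all levels here. Both hairpin groups lay below the control on every array. The fall passed the test with shRNA 2 (log2 change -1.23 ± 0.12 (SE), limma adjusted p = 0.00573) and not with shRNA 1 (-0.86 ± 0.12, adjusted p = 0.122). With shRNA 1 it passed in 4 of 15 alternatives (adjusted p from 0.000218 to 0.427 over the 15), and with shRNA 2 it was lost without the second NS shRNA array or the first shRNA 2 array (adjusted p = 0.0745 and 0.0592). The hairpins did not differ from each other in PEA15 past the threshold (-0.38 ± 0.12, adjusted p = 0.122), though they did in 4 of 15 alternatives. Of 10 markers of colorectal epithelium, 7 were detected on all 6 arrays, among them EPCAM, CDH1 and KRT20, and CDX1, VIL1 and LGALS4 were detected on none. KRT20 was dim, at 5.01 to 5.48, and its second probe was detected on 1 array. Of the markers of other cells, PTPRC, CD3E, COL1A2 and all 3 endothelial genes were detected on no array, while DCN was detected on 2 and CD14 and COL1A1 on all 6, CD14 at 4.96 to 5.28 and COL1A1 at 5.16 to 5.74. In total RNA of whole cultures, fewer cells expressing a gene and less RNA per cell cannot be told apart.

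With PEA15 shRNA 2, 6 of the 36 members rose against NS shRNA, by 1.57-fold to 1.93-fold, and 0 fell. They were the mevalonate enzyme HMGCS1, the sterol enzymes LSS and CYP51A1, the SREBP regulators INSIG1 and SREBF1, and the phosphatase LPIN1. Among all 15967 rows, 1.20% rose and 0.495% fell in this comparison at a limma adjusted p under 0.05. With PEA15 shRNA 1, 0 of the 36 rose and 0 fell against NS shRNA, where limma called 0.0188% of all rows higher and 0% lower. At an unadjusted limma p under 0.05, 6 of 36 members were counted with shRNA 1, CYP51A1, SREBF2 and MVK as higher and SQLE, ABCG1 and ELOVL6 as lower, where 5.84% and 5.89% of all rows were, so these counts are near the background. With shRNA 2 the same p was met by 19 members as higher and 1 as lower, where 8.87% and 9.07% of all rows met it. SREBF2 is among those counted as higher with both hairpins. It passed the detection filter only through the hairpin groups, so its place there is no support for a rise. All fold changes are ratios of background-corrected signals with an offset added, which understates the change of dim genes. In the comparison of shRNA 2 with NS shRNA, each of the 6 calls was lost when either NS shRNA array or either shRNA 2 array was left out, which leaves 1 array in a group, and those of LSS and LPIN1 also without either shRNA 1 array. With quantile normalization and no background correction 17 members passed in place of 6, MYLIP among them as lower. Without the detection filter, and with the replicate number as a block, 2 passed (HMGCS1 and CYP51A1), and LSS, INSIG1, SREBF1 and LPIN1 did not.

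**Figure D1:**
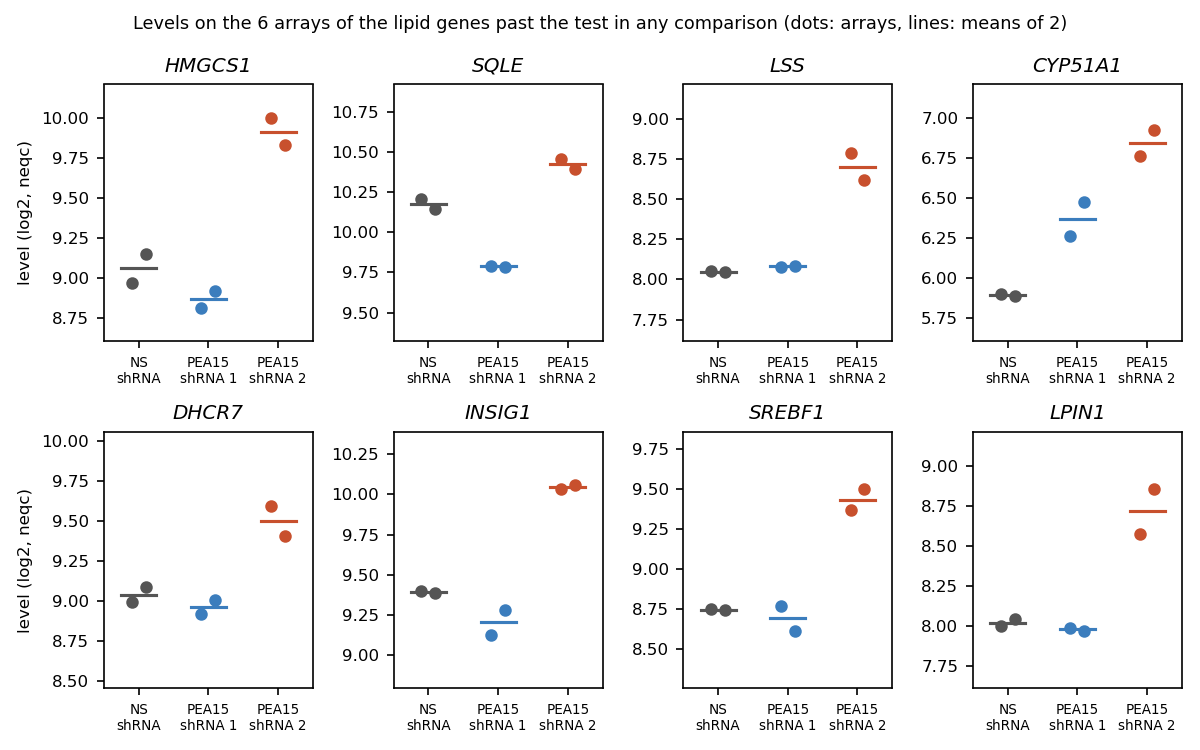
Normalized log2 level (vertical axis) on each of the 6 arrays for the members past the threshold in any comparison, by shRNA group, with each point 1 array and each bar the group mean. The shRNA 2 arrays lie above the other arrays for every gene drawn, and CYP51A1 with shRNA 1 lies between the control and shRNA 2.

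The mevalonate pathway begins with ACAT2 and HMGCS1, which join acetyl-CoA units into HMG-CoA. HMGCS1 stood at 8.97 and 9.15 with NS shRNA, at 8.82 and 8.92 with shRNA 1 and at 10.00 and 9.83 with shRNA 2. Both shRNA 2 arrays lay above the other 4, and both shRNA 1 arrays lay just below the control. The rise with shRNA 2 was 0.85 ± 0.12 (95% CI 0.58 to 1.12, 1.81-fold, limma adjusted p = 0.0179), and the difference with shRNA 1 was -0.19 ± 0.12 (adjusted p = 0.582). ACAT2, the cytosolic thiolase, stood at 9.37 and 9.38, at 9.56 and 9.28, and at 9.90 and 9.80 in the same order of groups. Its shRNA 2 arrays were also the highest of the 6, but the difference of 0.47 ± 0.12 did not pass (adjusted p = 0.1).

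The later mevalonate enzymes turn mevalonate into isoprenoid diphosphates. IDI1, the isomerase that interconverts the isoprenoid building blocks, stood at 7.20 and 6.87 with NS shRNA, at 7.24 and 7.44 with shRNA 1 and at 7.69 and 7.82 with shRNA 2. The 3 groups did not overlap and were ordered NS shRNA, shRNA 1, shRNA 2. The shRNA 2 difference of IDI1, 0.72 ± 0.14, lay just outside the threshold (limma adjusted p = 0.0538). It was 0.48 with quantile normalization and no background correction, where it passed (adjusted p = 0.00184). Over the 15 alternatives it passed in 5. FDPS, which makes farnesyl diphosphate, stood at 7.60 and 7.96, at 7.57 and 7.80, and at 8.33 and 7.94. Its second shRNA 2 array lay within the control range, and the difference of 0.36 ± 0.18 did not pass (adjusted p = 0.338).

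None of the remaining enzymes of the mevalonate pathway passed in any comparison. MVK, the mevalonate kinase, stood at 5.73 and 5.90 with NS shRNA, at 6.05 and 6.14 with shRNA 1 and at 6.18 and 6.09 with shRNA 2, so both hairpin groups lay above the control and overlapped each other. The MVK differences were 0.28 ± 0.11 and 0.32 ± 0.11 (limma adjusted p = 0.382 and 0.18). MVD, the decarboxylase that yields isopentenyl diphosphate, stood at 7.02 and 6.86, at 7.29 and 7.0, and at 7.45 and 7.12. Its difference with shRNA 2 was 0.35 ± 0.15 (adjusted p = 0.287). GGPS1, which feeds protein prenylation rather than sterols, stood at 8.88 and 8.80, at 9.04 and 9.03, and at 9.02 and 9.02. Both hairpin groups of GGPS1 lay above the control, by 0.20 and 0.18 (limma adjusted p = 0.481 and 0.371). PMVK, the second kinase of the route, had overlapping groups and a difference of 0.01 ± 0.13 with shRNA 2 (95% CI -0.30 to 0.31).

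Among the enzymes that turn squalene into cholesterol, LSS and CYP51A1 passed with shRNA 2. LSS, which closes squalene epoxide into lanosterol, stood at 8.05 and 8.05 with NS shRNA, at 8.08 and 8.08 with shRNA 1 and at 8.79 and 8.62 with shRNA 2. The control and shRNA 1 arrays were nearly alike and the shRNA 2 arrays lay above both. The rise of LSS with shRNA 2 was 0.65 ± 0.10 (95% CI 0.42 to 0.89, 1.57-fold, limma adjusted p = 0.0279). A second, dimmer LSS probe was 0.28 higher with shRNA 2 and 0.38 higher with shRNA 1 than with NS shRNA. That probe stood at 4.75 and 4.94 with NS shRNA, and only 1 NS shRNA array detected it. It passed the detection filter only through the hairpin groups, so its differences are no support for a rise.

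CYP51A1, the lanosterol demethylase, stood at 5.90 and 5.89 with NS shRNA, at 6.26 and 6.47 with shRNA 1 and at 6.76 and 6.93 with shRNA 2. The groups did not overlap and were ordered as for IDI1. The rise with shRNA 2 was 0.95 ± 0.12 (95% CI 0.68 to 1.22, 1.93-fold, limma adjusted p = 0.0132), and the shRNA 1 difference of 0.47 ± 0.12 did not pass (adjusted p = 0.247). CYP51A1 is a dim gene and its change depended on the background step, since it was 0.48 with quantile normalization and no background correction and 0.67 with an offset of 50 (adjusted p = 0.000656 and 0.000467).

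SQLE, the squalene epoxidase, had its hairpin groups on opposite sides of the control. It stood at 10.21 and 10.14 with NS shRNA, at 9.79 and 9.78 with shRNA 1 and at 10.46 and 10.40 with shRNA 2. Its 3 groups did not overlap, and the control lay between the hairpins. Neither difference from the control passed, at -0.39 ± 0.10 with shRNA 1 (limma adjusted p = 0.247) and 0.25 ± 0.10 with shRNA 2 (adjusted p = 0.228). The second SQLE probe differed by -0.16 and 0.33. Against NS shRNA with shRNA 1, SQLE was the 1 member called, as lower, when the background step was left out, when the deposited log2 values were used or when the prior spread was fitted as a trend.

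Of the later sterol enzymes, DHCR7 and MSMO1 had shRNA 2 arrays above the other 4 without passing against NS shRNA. DHCR7, the reductase of the last step, stood at 9.0 and 9.09 with NS shRNA, at 8.92 and 9.01 with shRNA 1 and at 9.59 and 9.41 with shRNA 2, a difference of 0.46 ± 0.11 from the control (limma adjusted p = 0.0885). Its second probe differed by 0.47. MSMO1, the sterol methyl oxidase, stood at 8.81 and 8.73, at 8.84 and 8.65, and at 9.14 and 9.27, a difference of 0.44 ± 0.11 (adjusted p = 0.101). Its 2 other probes differed by 0.26 and -0.11, so they did not share a direction. SC5D, the sterol desaturase, stood at 7.76 and 7.77, at 7.85 and 7.80, and at 8.07 and 8.11 (difference 0.32 ± 0.09, adjusted p = 0.134).

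The other sterol enzymes overlapped or differed by less. HSD17B7, the keto-sterol reductase, stood at 8.53 and 8.50 with NS shRNA, at 8.50 and 9.05 with shRNA 1 and at 8.72 and 8.79 with shRNA 2. The high shRNA 1 value came from 1 array, and the differences of 0.26 and 0.24 did not pass (limma adjusted p = 0.612 and 0.498). The sterol reductase TM7SF2, the dehydrogenase NSDHL and the isomerase EBP differed from the control by 0.16, 0.07 and -0.03 with shRNA 2, and none of the 3 passed.

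Of the 4 regulators of SREBP activity, 2 rose with shRNA 2. INSIG1, which retains SCAP in the endoplasmic reticulum and is itself an SREBP target, stood at 9.40 and 9.38 with NS shRNA, at 9.12 and 9.28 with shRNA 1 and at 10.03 and 10.06 with shRNA 2. The shRNA 2 arrays were the highest and the shRNA 1 arrays the lowest. The rise with shRNA 2 was 0.66 ± 0.10 (95% CI 0.42 to 0.90, 1.58-fold, limma adjusted p = 0.0277), and a second probe was 0.90 higher. With shRNA 1 the difference was -0.19 ± 0.10 on the main probe (adjusted p = 0.539) and 0.19 on the second, so that the probes differed in direction there.

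SREBF1, which encodes the SREBP best known for driving fatty acid genes, stood at 8.75 and 8.74 with NS shRNA, at 8.77 and 8.62 with shRNA 1 and at 9.37 and 9.50 with shRNA 2. Its shRNA 2 arrays lay apart from the other 4, which overlapped. The rise was 0.69 ± 0.11 (95% CI 0.44 to 0.93, 1.61-fold, limma adjusted p = 0.0277), and the second probe was 0.49 higher. SREBF2, which encodes the SREBP of the cholesterol genes, stood at 4.79 and 4.92, at 5.15 and 5.27, and at 5.15 and 5.16, and was detected on 5 of the 6 arrays. Only 1 NS shRNA array detected it, so it passed the filter only through the hairpin groups. It was dim, and its hairpin groups lay above the control and overlapped each other. Its differences of 0.36 with shRNA 1 and 0.30 with shRNA 2 did not pass (adjusted p = 0.276 and 0.19), and the latter was 0.09 without background correction. SCAP, the escort protein, stood at 9.79 and 9.93, at 9.93 and 9.84, and at 9.98 and 9.99 (difference 0.12 with shRNA 2, adjusted p = 0.577).

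Sequence upstream of the start sites was read for the 34 members with a RefSeq promoter (GRCh38.p14), as the 250 bases before each start. The CCAAT box, bound by NF-Y, which acts beside SREBPs at sterol gene promoters, was searched as CCAAT on both strands. It was found for 24 of these 34 members (70.6%), against 37.0% of 27305 genes. A gene was counted if any of its windows held a match, and some genes have several windows. Counted by window, the box was found in 28 of 48 member windows (58.3%), against 32.0% of 35116 windows. By role it was found for 6 of 7 mevalonate genes, 8 of 9 sterol enzymes, 2 of 4 SREBP regulators, 3 of 5 uptake and efflux genes and 5 of 9 fatty acid genes. These sets are not the tested ones. They include STARD4 and ACSL3, which were not tested and hold the box. ABCG1, ACAT2, FASN, FDFT1 and SQLE had no window. Of the 6 members that rose with shRNA 2, 3 held it. The sterol regulatory element, searched as TCACNCCAC on both strands, was found for SREBF2 alone, against 1.1% of genes. The composite element bound by ATF4 with C/EBP proteins, searched as TGATGNAA on both strands, was found for 0 of 34 members, against 3.9% of genes. These are letter matches in a short window, not measured sites.

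Windows are shown for the 3 members that rose and hold a CCAAT box, for MVK and NSDHL because they hold the most, 5 each, and for SREBF2 because it holds the sterol element. They lie at chr5:43313413-43313662 on the minus strand for HMGCS1, which has a second window as well, chr7:155297628-155297877 on the plus strand for INSIG1, chr21:46228775-46229024 on the minus strand for LSS, chr12:109573544-109573793 on the plus strand for MVK, chrX:152830813-152831062 on the plus strand for NSDHL and chr22:41832855-41833104 on the plus strand for SREBF2. Each runs 5′ to 3′ along its gene and ends at the base before the start site. Capitals mark CCAAT or its reverse complement, and in SREBF2 also the sterol element.
HMGCS1: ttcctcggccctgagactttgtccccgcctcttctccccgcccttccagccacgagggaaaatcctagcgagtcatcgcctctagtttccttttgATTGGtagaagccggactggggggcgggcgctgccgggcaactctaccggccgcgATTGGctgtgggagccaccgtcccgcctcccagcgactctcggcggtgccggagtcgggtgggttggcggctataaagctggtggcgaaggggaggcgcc
INSIG1: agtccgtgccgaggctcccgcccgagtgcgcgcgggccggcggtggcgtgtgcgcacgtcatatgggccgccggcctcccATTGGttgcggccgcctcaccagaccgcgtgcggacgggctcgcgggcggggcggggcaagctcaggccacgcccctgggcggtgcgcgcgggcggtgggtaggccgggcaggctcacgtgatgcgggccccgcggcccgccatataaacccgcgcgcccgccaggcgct
LSS: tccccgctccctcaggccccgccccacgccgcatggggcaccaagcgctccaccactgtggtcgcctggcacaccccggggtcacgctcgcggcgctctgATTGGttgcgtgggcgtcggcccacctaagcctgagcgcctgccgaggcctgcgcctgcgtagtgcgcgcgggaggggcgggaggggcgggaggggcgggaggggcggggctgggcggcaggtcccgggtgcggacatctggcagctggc
MVK: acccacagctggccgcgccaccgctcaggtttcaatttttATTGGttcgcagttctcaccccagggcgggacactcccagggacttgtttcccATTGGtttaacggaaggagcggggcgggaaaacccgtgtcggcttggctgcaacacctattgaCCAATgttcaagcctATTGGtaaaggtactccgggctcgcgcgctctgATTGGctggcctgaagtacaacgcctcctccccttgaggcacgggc
NSDHL: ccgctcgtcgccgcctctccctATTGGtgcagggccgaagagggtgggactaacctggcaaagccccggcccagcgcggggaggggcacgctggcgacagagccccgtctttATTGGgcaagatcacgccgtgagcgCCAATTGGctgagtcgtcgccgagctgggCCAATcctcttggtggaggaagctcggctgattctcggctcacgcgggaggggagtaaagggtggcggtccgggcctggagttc
SREBF2: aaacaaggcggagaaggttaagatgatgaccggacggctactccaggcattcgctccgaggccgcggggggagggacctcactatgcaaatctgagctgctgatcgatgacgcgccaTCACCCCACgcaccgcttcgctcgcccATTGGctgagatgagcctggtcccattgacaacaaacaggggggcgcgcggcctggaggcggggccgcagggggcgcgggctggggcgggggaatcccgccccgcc
Counted back from the start site, the first bases of the matches lay at -155 and -100 in HMGCS1, at -170 in INSIG1, at -150 in LSS, at -210, -157, -94, -79 and -46 in MVK and at -228, -138, -113, -110 and -84 in NSDHL. In NSDHL the matches at -113 and -110 overlap, on opposite strands. In SREBF2 the sterol element began at -133 and the CCAAT box at -106.

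Among the genes of sterol uptake, transport and efflux, 0 of the 5 tested members passed with shRNA 2, and 2 had a difference above 0 and 3 below. MYLIP, the ubiquitin ligase that marks lipoprotein receptors for degradation, stood at 9.10 and 9.13 with NS shRNA, at 8.99 and 9.04 with shRNA 1 and at 8.74 and 8.84 with shRNA 2. Its groups did not overlap and shRNA 2 was lowest, by -0.33 ± 0.10 against the control (95% CI -0.55 to -0.10, limma adjusted p = 0.143). ABCA1, which exports cholesterol to apolipoprotein, stood at 5.86 and 6.06, at 5.89 and 6.10, and at 5.51 and 5.87, a difference of -0.27 ± 0.15 with shRNA 2 (adjusted p = 0.398). ABCG1, another exporter, stood at 5.39 and 5.47, at 5.16 and 5.13, and at 5.28 and 5.38. ABCG1 was lowest with shRNA 1 (difference -0.28 ± 0.10, adjusted p = 0.336).

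The transport genes of the group were NPC1 and TMEM97. NPC1, which moves cholesterol out of lysosomes, stood at 8.48 and 8.32 with NS shRNA, at 8.58 and 8.54 with shRNA 1 and at 8.77 and 8.69 with shRNA 2. Its groups did not overlap, and the shRNA 2 difference of 0.33 ± 0.10 did not pass (limma adjusted p = 0.159). TMEM97, a membrane protein that binds NPC1, stood at 10.74 and 10.88, at 10.88 and 10.76, and at 10.91 and 10.77. On this main probe the 3 groups overlapped, with a difference of 0.03 for shRNA 2 (95% CI -0.23 to 0.29). A second, dimmer TMEM97 probe was 0.11 higher with shRNA 1 and 0.27 higher with shRNA 2 than with NS shRNA. On that second probe the 3 groups did not overlap.

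In fatty acid synthesis, LPIN1 passed with shRNA 2. LPIN1, the phosphatidate phosphatase lipin-1, acts after fatty acid synthesis, where it supplies diacylglycerol. It stood at 8.0 and 8.04 with NS shRNA, at 7.99 and 7.97 with shRNA 1 and at 8.58 and 8.86 with shRNA 2. The control and shRNA 1 arrays lay close together, below both shRNA 2 arrays. The rise was 0.69 ± 0.12 (95% CI 0.42 to 0.97, 1.62-fold, limma adjusted p = 0.0388).

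Of the enzymes that build and desaturate fatty acids, 0 passed with shRNA 2. ACSS2, which makes acetyl-CoA from acetate, stood at 9.25 and 9.45 with NS shRNA, at 9.41 and 9.37 with shRNA 1 and at 9.69 and 9.92 with shRNA 2 (difference 0.45 ± 0.12, limma adjusted p = 0.115). SCD, the stearoyl-CoA desaturase, stood at 12.46 and 12.53, at 12.47 and 12.58, and at 12.87 and 12.96 (difference 0.42 ± 0.10, adjusted p = 0.0921). In both genes the shRNA 2 arrays lay above the other 4, which overlapped. ACACA, the acetyl-CoA carboxylase that makes malonyl-CoA, stood at 9.94 and 10.00, at 9.98 and 9.96, and at 10.28 and 10.37 (difference 0.35 ± 0.10, adjusted p = 0.119). FADS1, the desaturase of polyunsaturated fatty acids, stood at 8.60 and 8.69, at 8.51 and 8.62, and at 9.04 and 8.97 (difference 0.36 ± 0.10, adjusted p = 0.124). ACACA and FADS1 showed the same arrangement of arrays as ACSS2 and SCD.

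FASN, the fatty acid synthase, differed by 0.19 ± 0.10 with shRNA 2 (limma adjusted p = 0.383), with the shRNA 2 arrays above the control. ELOVL6, which elongates palmitate, was lowest with shRNA 1, at 9.82 and 9.83, at 9.53 and 9.60, and at 9.93 and 10.16. Its differences from the control were -0.27 ± 0.11 and 0.22 ± 0.11 (adjusted p = 0.416 and 0.365), on opposite sides of 0 as for SQLE. The second ELOVL6 probe differed by -0.19 with shRNA 1 and 0.01 with shRNA 2, where its arrays overlapped the control. FADS2, a desaturase, was dim and detected on 4 arrays, at 5.30 and 4.77, at 4.87 and 4.94, and at 4.77 and 4.80. FADS2 passed the filter only through shRNA 1, the sole group with both arrays detected. Its first control array stood apart from the other 5, and its shRNA 2 difference of -0.25 ± 0.17 did not pass (adjusted p = 0.477). Without that array the difference was 0.02. ACLY, the citrate lyase that makes cytosolic acetyl-CoA, differed by 0.13 (adjusted p = 0.653).

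Read by role, the differences of shRNA 2 from NS shRNA were mostly above 0 in every synthetic group and not in uptake and efflux, though a difference between role groups was not tested. They were above 0 for 8 of 8 mevalonate genes (median 0.35, and 0.23 without the first shRNA 2 array), 9 of 10 sterol enzymes (median 0.29), 4 of 4 SREBP regulators (median 0.48), 2 of 5 uptake, transport and efflux genes (median -0.10) and 8 of 9 fatty acid genes (median 0.35). Over all 36 the count was 31 with a median of 0.32, against 48.9% of all rows above 0 and a median of -0.01. The members were chosen with earlier results of these data known, so this contrast is not a test. The shRNA 2 arrays lay wholly above the control arrays for 27 of the 36 and wholly below for 2 (ABCG1 and MYLIP), where 24.0% and 26.1% of all rows did so. With shRNA 1 the differences were above 0 for 22 of 36, with a median of 0.03. The shRNA 1 arrays lay wholly above the control for 10 and wholly below for 7, where 20.6% and 21.7% of all rows did so. SREBF2 is counted as above 0 and as wholly above the control with both hairpins. It passed the detection filter only through the hairpin groups, so its place in these counts is no support for a rise.

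**Figure D2:**
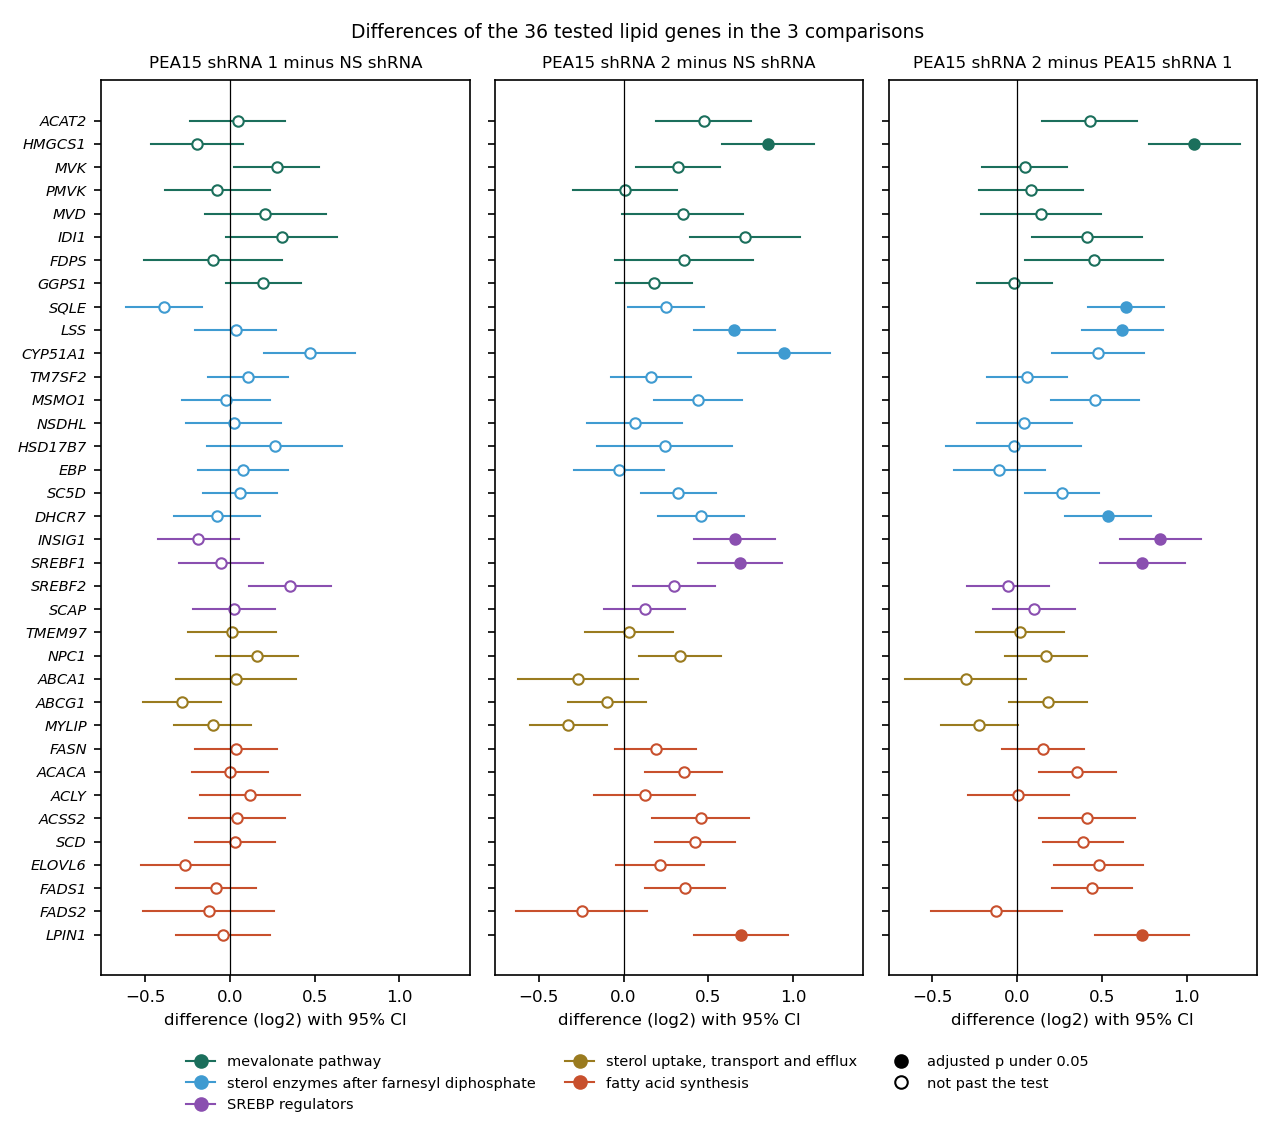
Log2 difference (horizontal axis) of each tested member in the 3 comparisons, 1 panel each and coloured by role, with lines for the 95% confidence interval and filled points for a limma adjusted p under 0.05. Against NS shRNA the shRNA 2 points lie right of 0 for 31 of 36 genes, and the shRNA 1 points scatter around 0 with a median of 0.03.

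Array by array, the mean level of the 8 mevalonate genes relative to the NS shRNA mean was 0.09 and 0.08 with shRNA 1 and 0.48 and 0.33 with shRNA 2. For the 10 sterol enzymes it was 0.05 and 0.06, then 0.35 and 0.35. The 4 SREBP regulators gave 0.03 and 0.04, then 0.42 and 0.46. Both shRNA 2 arrays therefore held the difference in each of these groups. The regulator means include SREBF2, which passed the detection filter only through the hairpin groups. The 9 fatty acid genes gave -0.07 and 0.00 with shRNA 1 and 0.25 and 0.32 with shRNA 2, and the 5 uptake and efflux genes gave -0.04 and -0.03, then -0.10 and -0.03.

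**Figure D3:**
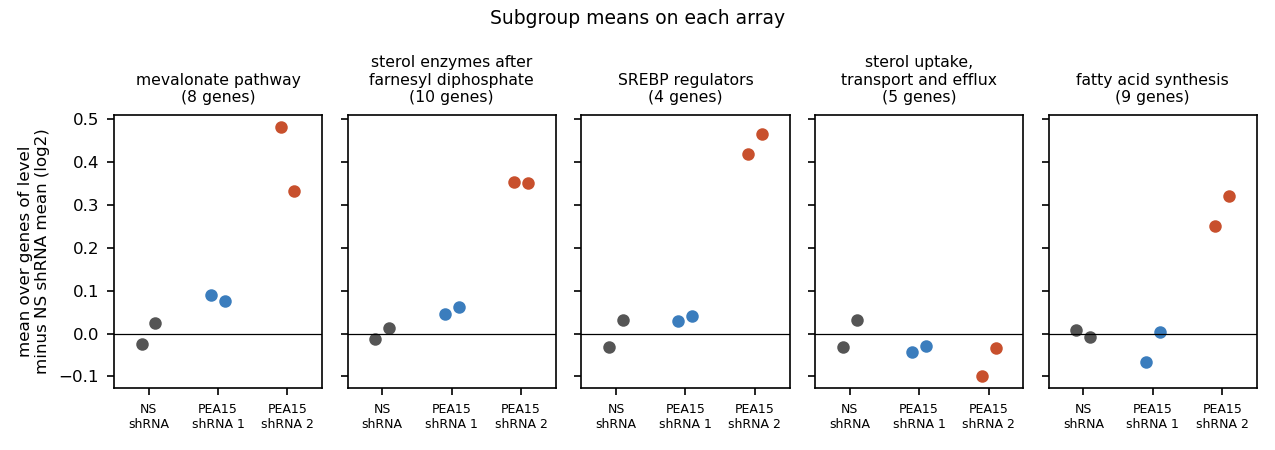
Mean log2 level of the tested members of each role group on each array, relative to the mean of the NS shRNA arrays (vertical axis), with 1 point per array. In the 4 synthetic and regulatory groups both shRNA 2 points lie above all others, and in uptake, transport and efflux they do not.

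The hairpins were then compared directly. This comparison shares its shRNA 2 arrays with the one above. Of the 36 tested members 7 rose with shRNA 2 against shRNA 1 and 0 fell, where 2.00% of all rows rose and 1.32% fell. The 7 were HMGCS1 (1.05 ± 0.12, 2.06-fold, limma adjusted p = 0.0078), INSIG1 (0.84 ± 0.10, 1.79-fold, adjusted p = 0.0103), SREBF1 (0.74 ± 0.11, adjusted p = 0.0164), LPIN1 (0.74 ± 0.12, adjusted p = 0.0233), SQLE (0.64 ± 0.10, adjusted p = 0.018), LSS (0.62 ± 0.10, adjusted p = 0.0249) and DHCR7 (0.54 ± 0.11, adjusted p = 0.0469). The dimmer LSS probe was 0.10 lower with shRNA 2 than with shRNA 1, against the rise of the main probe. CYP51A1 was 0.48 ± 0.12 higher and did not pass (adjusted p = 0.07). HMGCS1 and INSIG1 stayed called without the second shRNA 1 array and HMGCS1 without the second shRNA 2 array, and 0 of the 7 stayed without the first array of either hairpin. LSS, DHCR7 and LPIN1 were also lost without either NS shRNA array, which enters this comparison only through the shared spread.

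The arrays of shRNA 2 lay wholly above those of shRNA 1 for 23 of the 36 members and wholly below for 4, where 26.0% and 27.7% of all rows did so. The median difference between the hairpins was 0.28 over the mevalonate genes (0.13 without the first shRNA 2 array), 0.36 over the sterol enzymes, 0.42 over the SREBP regulators, 0.39 over the fatty acid genes and 0.02 over uptake, transport and efflux. Those wholly below were MYLIP, ABCA1, GGPS1 and FADS2, with differences of -0.22, -0.30, -0.02 and -0.12, none of which passed. FADS2 had passed the detection filter only through shRNA 1, the higher group here.

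For 11 tested members more than 1 probe was kept, which gave 13 further probes. With shRNA 2 against NS shRNA, 11 of the 13 had the direction of the gene's main probe, and the exceptions were 1 probe each of MSMO1 and ACLY. With shRNA 1, 10 of 13 did, the exceptions being 1 probe each of MSMO1, INSIG1 and ACACA. Between the hairpins 11 of 13 did, and the exceptions belonged to LSS and ACLY. The second LSS probe is counted as sharing the direction against NS shRNA with both hairpins. It passed the detection filter only through the hairpin groups, so its place in those counts is no support for a rise.

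**Figure D4:**
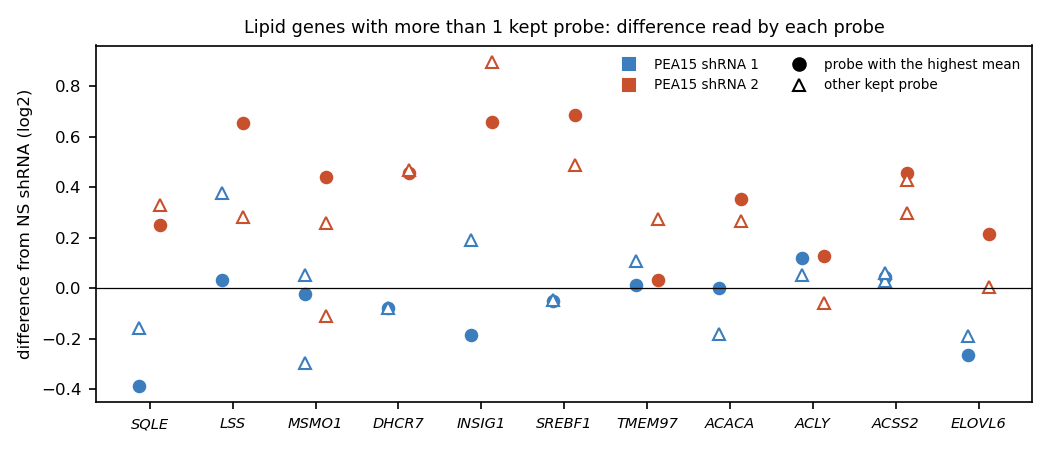
Log2 difference from NS shRNA of every kept probe of the members with more than 1, for shRNA 1 and shRNA 2, with filled circles for the probe that represents the gene and open triangles for the others. Most shRNA 2 probes lie above 0, and a probe each of MSMO1 and ACLY lies below.

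Of 50 other sterol and lipid genes, 43 were tested. Against NS shRNA limma called 0 with either hairpin. An unadjusted p under 0.05 was met by 2 as higher and 2 as lower with shRNA 1, and by 5 and 4 with shRNA 2, near the shares of all rows given above (5.84% and 5.89%, then 8.87% and 9.07%). With shRNA 2 the differences were above 0 for 18 of 43, with a median of -0.03. Between the hairpins 1 rose and 2 fell of the 43, where 2.00% and 1.32% of all rows did, and each of the 3 calls was lost with any single array left out. MID1IP1, which promotes polymerisation of acetyl-CoA carboxylase, stood at 8.46 and 8.44 with NS shRNA, at 8.33 and 8.37 with shRNA 1 and at 8.83 and 8.96 with shRNA 2 (0.54 ± 0.10 against shRNA 1, limma adjusted p = 0.0358). ACSL5, an acyl-CoA synthetase, stood at 9.68 and 9.71, at 9.88 and 10.01, and at 9.36 and 9.23 (-0.65 ± 0.10, adjusted p = 0.0225). PLIN2, a lipid droplet coat protein, stood at 9.10 and 9.0, at 9.26 and 9.18, and at 8.76 and 8.62 (-0.53 ± 0.11, adjusted p = 0.0454). The control lay between the hairpins for these 3 genes.

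Beside these, 3 genes named with earlier results known are given. ATF4, a transcription factor of the integrated stress response, stood at 12.38 and 12.37 with NS shRNA, at 12.45 and 12.33 with shRNA 1 and at 13.24 and 13.22 with shRNA 2, a rise of 0.85 ± 0.10 (limma adjusted p = 0.00994). This call was lost without any 1 of the NS shRNA or shRNA 2 arrays (adjusted p up to 0.0989). DDIT3 and TRIB3, which act downstream of ATF4, rose by 1.63 ± 0.12 and 1.82 ± 0.09 with shRNA 2 (limma adjusted p = 0.00183 and 0.000526), and both stayed called in all 15 alternatives. With shRNA 1 the differences of ATF4, DDIT3 and TRIB3 were 0.01, -0.05 and -0.01. The part of these differences in the lipid gene result was not tested.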

How the data were processed

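Total RNA of HCT116 cells was biotin-labelled for Illumina expression arrays, as the labels' protocols say. The deposited table gives, for 47323 probes on 6 arrays, a non-normalized signal, which is a linear intensity, with its detection p-value, per the file headers. The deposited series table holds log2 values that the authors made with lumi, per the submitters' processing notes; its columns share 1 median (6.75), it ranks probes as the signals do, and it served as an alternative. The sources used here do not give its background step.

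The function neqc (limma 3.58.1, R 4.3.3) gave the levels: background correction from the detection p-values, an offset of 16, quantile normalization and log2. A filter kept 19781 probes, those detected (p under 0.05) on each array of some group, and the brightest kept probe by its mean over all arrays stood for a gene. Symbols came from the platform annotation. A model with 3 group means (3 residual and 4.54 prior degrees of freedom) was fitted to all 15967 rows with lmFit and eBayes; tests were two-sided with Benjamini-Hochberg adjustment over all rows and a threshold of 0.05. Errors of changes are standard errors, and the number of arrays, 2 a group, limits the precision.

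The groups and replicate numbers came from the labels. The members, the list of 50 other lipid genes and the tests were chosen with earlier results of these data known. Any member could be named, with all 6 levels for those past the threshold and up to 6 others a role group with the largest change; of the other lipid genes, up to 8 a comparison past the threshold were named, and PEA15, ATF4, DDIT3 and TRIB3 beside them. Promoter bases came from a RefSeq table of GRCh38.p14. The scripts were tested on simulated data. Alternatives covered the background step, normalization, filter, probe choice, prior, samples fitted and each array left out.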

Additional observations from a re-analysis of the deposited data

Results flagged for a closer look

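The differences of the hairpins from the control differed from each other, by the direct test of PEA15 shRNA 2 against PEA15 shRNA 1, for 7 members and 3 other lipid genes. HMGCS1 was higher with shRNA 2 than with shRNA 1 by 1.05 on the log2 scale, INSIG1 by 0.84, SREBF1 by 0.74, LPIN1 by 0.74, SQLE by 0.64, LSS by 0.62 and DHCR7 by 0.54. Of the other list, MID1IP1 was higher by 0.54, while ACSL5 and PLIN2 were lower, with differences of -0.65 and -0.53. Over 15 alternatives the call held in 13 for HMGCS1, 12 for INSIG1, 11 each for SQLE and SREBF1, 8 for LSS, 7 for LPIN1 and 5 for DHCR7. It held in 8 for ACSL5 and in 6 each for MID1IP1 and PLIN2, and these 3 were lost with any single array left out.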

How the results depend on the processing

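Against NS shRNA with shRNA 2, the 6 calls became 17 with quantile normalization and no background correction, 18 with the deposited log2 values, 14 with an offset of 50 and 15 with a trended prior, and all 6 stayed among them. They became 2 without the detection filter and from 0 to 4 with 1 array left out. Between the hairpins the 7 calls became 17, 17, 16 and 16 in the first 4 settings, 11 with probes detected on all 6 arrays, 4 with only the groups compared and from 0 to 4 with 1 array left out. With shRNA 1, 1 member (SQLE, lower) was called without background correction, with the deposited log2 values and with the trended prior, in place of 0. Over all rows, the 3, 271 and 530 calls with shRNA 1, with shRNA 2 and between hairpins became 148, 1002 and 1758 without background correction, 162, 1004 and 1785 with the deposited log2 values, 79, 829 and 1508 with an offset of 50, 125, 896 and 1653 with the trended prior, 0, 116 and 247 without the filter, 6, 456 and 896 with probes detected on all arrays, and 0, 165 and 230 with only the groups compared. With 1 array left out they were 0, from 17 to 165, and from 35 to 230. At an unadjusted p under 0.05 the main model had 1873, 2864 and 3583 rows. The cause of these moves was not tested.

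Same-numbered arrays did not deviate together across rows (correlations -0.017, 0.045 and 0.078). These correlations cannot show whether same-numbered samples were prepared together, which the labels do not state. Blocking on the replicate number (replicate block), the calls were 0, 2 (HMGCS1 and CYP51A1) and 6 members, and 0, 142 and 333 rows. A slide block was not run, since the files name no slide.

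The median of the SREBP regulators with shRNA 2 was 0.35 without background correction, 0.36 with the deposited log2 values, 0.39 with an offset of 50 and 0.66 over the members detected on all arrays, which leaves SREBF2 out. Between hairpins these regulators gave 0.37, 0.37 and, over the members detected on all arrays, 0.74, and from 0.36 to 0.45 with 1 array left out. With shRNA 1 they gave -0.053 over members detected on all arrays and from -0.063 to 0.047 with 1 array left out. The sterol enzymes between hairpins gave 0.23, 0.23 and 0.29 in the first 3 settings. With 1 array left out, uptake, transport and efflux gave from -0.074 to 0.082 with shRNA 1 and from -0.056 to 0.092 between hairpins, and the mevalonate genes gave from 0.23 to 0.52 with shRNA 2 and from 0.13 to 0.33 between hairpins.

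For single genes, directions changed only with 1 array left out, and for no gene that was called in any setting where its sign changed. With shRNA 1 these were ATF4 from -0.043 to 0.068, DDIT3 from -0.16 to 0.0605, TRIB3 from -0.042 to 0.028, ACAT2 from -0.091 to 0.18, PMVK from -0.20 to 0.053, FDPS from -0.28 to 0.079, MSMO1 from -0.12 to 0.072, NSDHL from -0.11 to 0.15, HSD17B7 from -0.011 to 0.54, EBP from -0.052 to 0.20, SREBF1 from -0.13 to 0.025, SCAP from -0.048 to 0.098, TMEM97 from -0.06 to 0.086, ABCA1 from -0.074 to 0.14, ACACA from -0.031 to 0.032, ACLY from -0.041 to 0.28, ACSS2 from -0.058 to 0.14, SCD from -0.026 to 0.084 and FADS2 from -0.39 to 0.14. With shRNA 2 these were PMVK from -0.12 to 0.13, NSDHL from -0.066 to 0.20, TMEM97 from -0.043 to 0.11 and FADS2 from -0.51 to 0.017. Between hairpins these were MVK from -0.0013 to 0.0904, PMVK from -0.024 to 0.19, MVD from -0.025 to 0.30, NSDHL from -0.028 to 0.11, HSD17B7 from -0.30 to 0.25, EBP from -0.23 to 0.024, SREBF2 from -0.12 to 0.0057, TMEM97 from -0.056 to 0.092 and ACLY from -0.15 to 0.17.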
